A study of Bos taurus with 6 samples.

Results

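RNA sequencing of a back muscle, longissimus dorsi, compared Angus cattle, a beef breed, with Chinese Simmental cattle, and the deposited table of genes that differed between them held 37 genes with no read at all in one of the breeds. These 37 were selected on the deposited read counts, from the 2040 genes of that table, as those with counts of 0 in all 3 libraries of Angus or in all 3 of Chinese Simmental. Of them, 16 had reads in Angus and none in Chinese Simmental, and 21 had reads in Chinese Simmental and none in Angus. Both groups were sampled at ribs 12 and 13 of animals aged 18 months, with no treatment in the labels, and the series is titled as work on fat within muscle. Whether each of the 3 samples per breed is its own animal is not stated, so the spreads given here measure differences between these samples and may be technical.

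A sequencing library samples a limited number of RNA fragments, so a gene with few transcripts can be counted in one library and missed in the next. A count of 0 therefore sets an upper limit on a level and does not show that a gene is silent. Here 0 counts over the 3 libraries of a breed were read as allowing up to 3 counts in all, which is a normalized count of 0.977 per library in Chinese Simmental and 1.01 in Angus. Normalized counts are the deposited counts divided by the authors' size factors, which correct for depth. The limit covers counting error only, and only in the breed without reads. Levels given below as times the limit use the mean of the breed with reads, without its own spread. They also change with the size factors and with the floor of 3 counts. Since the counts of both breeds chose the genes, every difference between breeds below is a description of that choice and carries no test.

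The authors' deposited table is itself a selection, in which the smallest absolute log2 fold change was 1.00 and the largest adjusted p was 0.0492, so a gene at 0 in one breed that did not pass this selection is not among the 37. Counts over the listed genes summed to between 12010803 and 28883725 per library, and the full depth of each library is unknown here. The labelled tissue could be checked in part. Of 14 skeletal muscle markers, TNNT3 and RYR1 were listed, the first higher in Angus at 938 ± 527 against 195 ± 141 and the second higher in Chinese Simmental at 2566 ± 1528 against 263 ± 136, and the other 12 were not in the table. All 8 listed of 10 B cell markers were higher in Angus, with sums of 176250 to 247471 normalized counts per library against 42945 to 68811. All 8 listed of 10 myeloid markers were higher in Chinese Simmental. The highest listed B cell marker, CD79A, stood at 65888 ± 13070 in Angus, and the highest listed myeloid marker, S100A9, at 297135 ± 125882 in Chinese Simmental. Both were far above TNNT3 and RYR1, though not every such marker was, CD14 being at 573 ± 331 in Angus. How much of each sample was muscle was not tested and cannot be told from listed genes alone. The part of these cells in the counts of the 37 genes was not tested. In bulk tissue, fewer cells of a type and less RNA per cell cannot be told apart.

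Genes without reads in one breed were a small share of the table. The 16 absent from Chinese Simmental were 3.14% of the 509 genes listed as higher in Angus and 0.784% of the whole table. The 21 absent from Angus were 1.37% of the 1531 genes listed as higher in Chinese Simmental and 1.03% of the whole table. All of them were weakly counted where they did have reads. The median over the 16 genes was 23.7 normalized counts in Angus, against 761 over all genes listed as higher in Angus, and the median over the 21 genes was 18.9 in Chinese Simmental, against 2658 over all genes listed as higher in that breed. The lowest level of any listed gene in each direction belonged to one of the 37 genes, LOC101905630 at 11.5 in Angus and DNAH8 at 12.8 in Chinese Simmental. Among listed genes within the members' range of levels, 16 of 143 (11.2%) had no read in Chinese Simmental and 21 of 92 (22.8%) had none in Angus. The other genes in these ranges had a median of 93 and 9 reads in the low breed. DNER carries the Angus range up to 261, and the other range ends at 71.6, so these shares and medians are not at like levels. Under 20 normalized counts, 7 of 10 genes listed as higher in Angus were among the members, and 11 of 16 in the other direction.

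**Figure D1:**
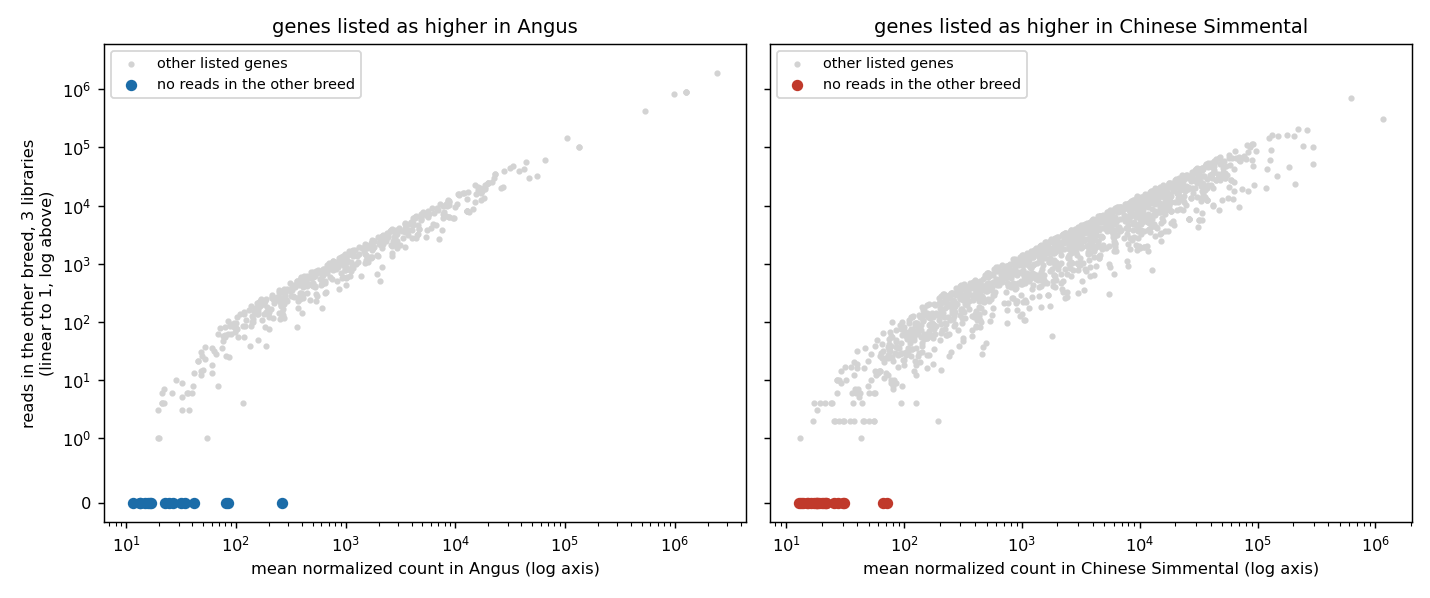
Each point is a listed gene, with its mean normalized count in the breed where it was higher on the horizontal log axis and its reads summed over the 3 libraries of the other breed on the vertical axis (linear up to 1, log above). The 16 and 21 genes without reads lie on the 0 line, at no more than 261 normalized counts in Angus and 71.6 in Chinese Simmental, at the weak end of each panel.

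Among the genes with reads in Angus alone, DNER had the highest level and NTNG1 the seventh highest, and both encode proteins known from the surface of nerve cells. DNER, a transmembrane protein with EGF-like repeats that binds Notch and is best known from Purkinje neurons of the cerebellum, had 314, 232 and 229 reads in Angus replicates 1 to 3 and FPKM of 2.97, 2.85 and 2.24. Its 3 Angus libraries lay close together at 261 ± 32.8 normalized counts (SD, n = 3), 268 times the limit for Chinese Simmental. It stood apart from the other 36 genes, the next of which was at 83.9. NTNG1 encodes netrin-G1, a protein tethered to the axon membrane by a lipid anchor, and had 23, 29 and 24 reads with FPKM of 4.49, 6.92 and 3.68. Its level of 26.5 ± 8.63 was 27.1 times the limit, and no Angus library was far from the others. Of 21 genes of the Notch pathway, 3 were listed, namely DNER, the related DLK2 at 872 ± 192 in Angus against 122 ± 114, and the receptor NOTCH1 at 9284 ± 2163 in Angus against 20152 ± 5295. Of 16 netrins, netrin receptors and netrin-G ligands, NTNG1 alone was listed. None of 10 neuron and Schwann cell markers was in the table.

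A pair of transcription factors had reads in Angus alone. ZSCAN23, a zinc finger protein with a SCAN dimerization domain, had 50, 35 and 38 reads and FPKM of 4.36, 4.47 and 2.18. At 41.3 ± 3.40 normalized counts it had the smallest relative spread of the 16 genes (coefficient of variation 0.0824). Its level was 42.3 times the limit. The related ZSCAN31 was listed too, at 212 ± 31.7 in Angus against 86.3 ± 33.6, and these were the 2 listed of 20 SCAN domain zinc finger genes. NFATC4, a factor that moves to the nucleus when calcium activates the phosphatase calcineurin, had 20, 20 and 8 reads. Its level of 16.7 ± 8.56 was 17.1 times the limit. Replicate 3 was the low library for NFATC4, and no other of the 5 NFAT genes was listed.

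C1QTNF1 bears most directly on the title of the study, since it encodes CTRP1, a secreted protein of the adiponectin family. It had 14, 27 and 4 reads in Angus, with FPKM between 0.0296 and 0.147. At 16.5 ± 15.4 normalized counts its libraries differed 8.56-fold from lowest to highest, so its mean rests mostly on replicate 2. The family member C1QTNF12 was also listed as higher in Angus, at 1029 ± 307 against 191 ± 35.6, and the other 8 of the 10 family names searched for, ADIPOQ among them, were not in the table. MT3, a metallothionein that binds zinc and copper and is known from brain, had 10, 19 and 36 reads and stood at 22.6 ± 13.5. MT1E, the other listed metallothionein of 5, was listed in the opposite direction, at 40.1 ± 22.8 in Angus against 119 ± 9.65. PLEKHH2, an actin-binding protein with pleckstrin homology and FERM domains, had 13, 10 and 17 reads and was even across libraries at 13.4 ± 2.93.

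The remaining named genes with reads in Angus alone were of mixed kinds. OR12D2, an olfactory receptor, had 55, 2 and 25 reads with FPKM of 2.21, 0.131 and 1.18. Its 2 reads in replicate 2 have an exact Poisson 95% interval of 0.242 to 7.22, so that library was low beyond counting error, and the highest library was 18.8 times the lowest. C2H2orf72, an uncharacterized gene, had 30, 6 and 11 reads, and CIST1, annotated as a hypothetical protein, had 25, 8 and 9, both highest in replicate 1. LOC112449072, annotated as similar to multidrug resistance-associated protein 4, an ABC transporter, had 14, 36 and 39 reads at FPKM of 0.0329, 0.0643 and 0.0516. LOC101905630, whose nr text is complement factor H, an inhibitor of the complement cascade in plasma, had 9, 12 and 12 reads and the lowest mean FPKM of the 37 genes, 0.0108.

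**Figure D2:**
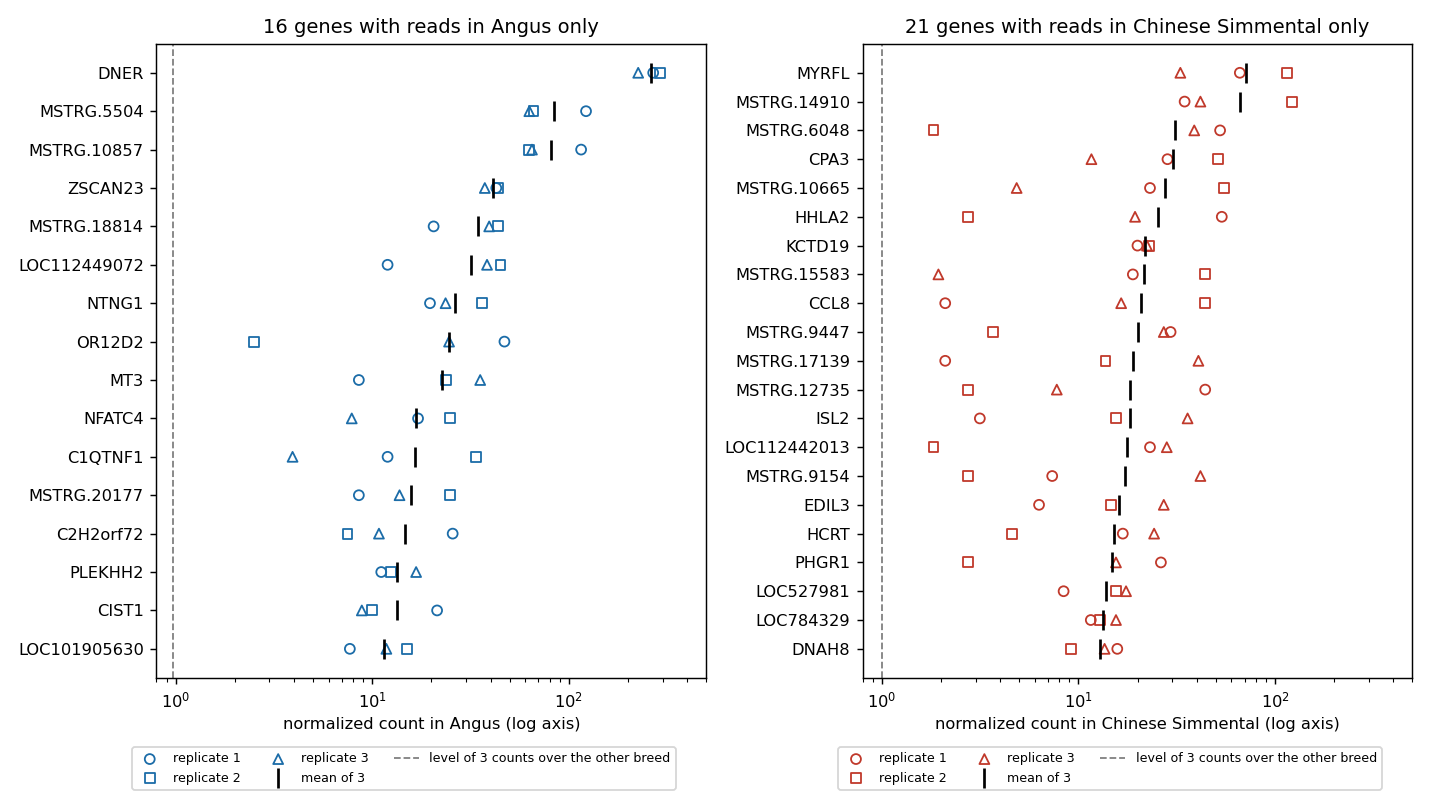
Normalized counts on a log axis of the 16 genes with reads in Angus alone (left) and the 21 with reads in Chinese Simmental alone (right), with a symbol for each replicate, a black bar at the mean of 3 libraries and a dashed line at the level of 3 counts over the other breed. DNER stands at 261 in Angus and MYRFL at 71.6 in Chinese Simmental, and the symbols of the right panel are spread more widely than those of the left.

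The 4 assembled loci with reads in Angus alone included both levels that came next after DNER. MSTRG.5504 had 143, 53 and 64 reads and MSTRG.10857 had 135, 50 and 66, at 83.9 ± 33.4 and 81.0 ± 29.95 normalized counts. Both carry the same annotation, a hypothetical protein of yak (Bos mutus) in nr and a LINE-1 reverse transcriptase homolog in Swiss-Prot. LINE-1 elements are retrotransposons that copy themselves through RNA and lie in great numbers in mammalian genomes, so reads can match more than one copy and both levels are uncertain. Their counts ran in parallel, highest in replicate 1, and the libraries of the 2 loci differed by at most 8 reads. MSTRG.18814, annotated as a J domain protein in nr, had 24, 35 and 40 reads and stood at 34.5 ± 12.3. MSTRG.20177, with a C6orf132-like text, had 10, 20 and 14.

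The same LINE-1 annotation also appeared in the other direction. MSTRG.14910, which shares the nr and Swiss-Prot text of MSTRG.5504 and MSTRG.10857, had 33, 133 and 43 reads in Chinese Simmental and none in Angus, at 66.1 ± 48.4 normalized counts. In all, 5 listed loci carried this nr text, with 3 of them listed in the Angus direction and 2 in the other. The other 2 had reads in every library, MSTRG.3584 with 322, 309 and 420 reads in Angus and 224, 162 and 123 in Chinese Simmental, and MSTRG.11165 with 7, 1 and 4 against 71, 38 and 66. Of 27 listed loci with the LINE-1 text, 10 had their higher level in Angus and 17 in Chinese Simmental. The 3 without reads in one breed were 11.1% of these loci, against 1.81% of all listed genes. MSTRG.9447, annotated as a transposase with an L1 domain in Pfam, had 28, 4 and 28 reads in Chinese Simmental alone. With it, 4 of the 37 genes (10.8%) matched a set of retroelement words, against 64 of the 2040 listed genes (3.14%). Neither share was set against genes of like level. MSTRG.5504 and MSTRG.10857, with their parallel counts, may share reads and so may not be separate signals.

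Immune genes were among the 21 with reads in Chinese Simmental alone. CPA3, the carboxypeptidase of mast cell granules, had 27, 56 and 12 reads and FPKM of 0.145, 0.333 and 0.0674. It stood at 30.5 ± 19.9, a mean 30.3 times the limit for Angus, with replicate 3 the lowest at 11.7. LOC112442013, whose Swiss-Prot text is tryptase, a serine protease family that includes the main enzyme of mast cell granules, and whose nr text is a serine protease 22-like protein, had 22, 2 and 29 reads. CPA3 and this gene did not follow each other across libraries, since CPA3 was highest in replicate 2 and LOC112442013 was lowest there. Of 14 mast cell genes, chosen after the values were seen, the interleukin 33 receptor IL1RL1 was the other one listed, at 3533 ± 2548 in Chinese Simmental against 673 ± 244. The remaining 12 were not in the table.

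CCL8, a chemokine that attracts monocytes and other leukocytes, had 2, 48 and 17 reads in Chinese Simmental, at FPKM of 0.0206, 0.240 and 0.0854. With a coefficient of variation of 1.02 its level of 20.9 ± 21.3 did not exceed its spread. CCL16, a chemokine that was the other one listed of 7 related names, had reads in all libraries and stood at 10958 ± 7845 against 1247 ± 527. The 7 names left out other chemokines, such as CCL5, listed as higher in Chinese Simmental at 17369 against 3633. HHLA2, a B7 family ligand that acts on T cells in humans, had 51, 3 and 20 reads, with 70.8% of its normalized counts in replicate 1. The other 3 listed of 9 B7 ligands, VSIR, CD86 and CD274, were also higher in Chinese Simmental, at 37467 ± 17842, 4525 ± 1749 and 1890 ± 647 there. LOC784329, annotated as C-type lectin CLEC2B with a Swiss-Prot hit to the natural killer receptor NKG2-A, had 11, 14 and 16 reads and was among the most even at 13.3 ± 2.03. Beside these genes, the 8 listed myeloid markers summed to between 427664 and 842098 normalized counts per library in Chinese Simmental against 29432 to 55113 in Angus, and none of the 8 was at 0 in any library. The 3 listed of 11 T and natural killer cell markers, GZMA, NCR1 and NKG7, summed to between 5507 and 16812 against 2914 to 4571. The part of these cells in the counts of CPA3, CCL8, HHLA2 and LOC784329 was not tested.

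MYRFL, KCTD19, DNAH8 and ISL2, which also had reads in Chinese Simmental alone, differed in level and in evenness across libraries. MYRFL, a membrane-bound factor related to the myelin regulator MYRF, had 63, 126 and 34 reads at FPKM of 0.104, 0.294 and 0.103. At 71.6 ± 41.5 it was the highest of the 21 genes, 71.2 times the limit, and its 3 libraries differed 3.50-fold. KCTD19, a BTB domain protein required for meiosis in mouse testis, had 19, 25 and 23 reads at FPKM of 11.6, 12.2 and 8.87. It was the most even of the 37 genes at 21.7 ± 1.55 (coefficient of variation 0.0714). With the authors' size factors its level was 21.6 times the limit. DNAH8, a heavy chain of the axonemal dynein that drives the sperm tail, had 15, 10 and 14 reads and stood at 12.8 ± 3.37. ISL2, a LIM homeodomain factor of motor neurons, had 3, 17 and 37 reads.

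Both KCTD19 and DNAH8 are best known from the male germ line. Of 14 germ cell markers, KCTD19 and BRDT were listed, and BRDT was listed as higher in Angus, at 22.0 ± 5.54 against 1.22 ± 2.12. The dynein chain DNAH9 was listed as higher in Chinese Simmental with reads in all libraries, at 253 ± 68.8 against 103 ± 12.1, and with DNAH8 made up the listed genes of 16 cilium and dynein names. KCTD12 and KCTD7 were the other listed KCTD genes, the first higher in Chinese Simmental at 19192 ± 10779 against 5972 ± 1170 and the second higher in Angus at 387 ± 124 against 100.3 ± 35.2.

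Secreted and membrane proteins completed the named genes. HCRT encodes the precursor of the orexins, hypothalamic peptides of wakefulness and feeding, and had 16, 5 and 25 reads in Chinese Simmental at FPKM of 0.0609, 0.00943 and 0.0704. Neither orexin receptor was in the table. EDIL3, a secreted ligand of integrins with EGF and discoidin domains, had 6, 16 and 28 reads and stood at 16.1 ± 10.5. LOC527981, annotated as similar to low-density lipoprotein receptor-related protein 1, had 8, 17 and 18 reads, and PHGR1, a small histidine-rich protein of intestinal epithelium, had 25, 3 and 16.

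Assembled loci gave 8 of the 21 genes with reads in Chinese Simmental alone. MSTRG.6048 and MSTRG.9154 share a hypothetical protein of yak as nr text and were the 2 listed loci that carry it. MSTRG.6048 had 50, 2 and 40 reads and MSTRG.9154 had 7, 3 and 43, so both were low in replicate 2 but only MSTRG.9154 was also low in replicate 1. MSTRG.10665, with a FOPNL text, had 22, 60 and 5 reads, and MSTRG.15583, with a text for a subunit of transcription factor IIIB, had 18, 48 and 2, both highest in replicate 2. MSTRG.17139, an uncharacterized protein, had 2, 15 and 42 reads. MSTRG.12735, annotated as hyaluronidase PH-20, had 42, 3 and 8, with 80.8% of its normalized counts in replicate 1.

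The spread between libraries was wider among the genes of Chinese Simmental than among those of Angus, although this comparison rests on different genes and was not tested. The median coefficient of variation was 0.789 over the 21 genes and 0.456 over the 16. At the median read count of each set, counting alone gives 0.225 and 0.206. Other listed genes within each set's own range of levels had medians of 0.597 in Chinese Simmental (71 genes) and 0.351 in Angus (127 genes). The Angus range reaches higher, up to DNER, so these medians are not at like levels. For 13 of the 21 genes the highest library was over 5 times the lowest, against 2 of the 16, OR12D2 and C1QTNF1. Under 5 reads in some library were found for 11 of the 21 and for 2 of the 16.

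No single Chinese Simmental library carried these genes. Summed over the 21, normalized counts were 494, 559 and 485 in replicates 1 to 3. Replicate 1 was the lowest for 8 of the 21 (38.1%), replicate 2 for 9 (42.9%) and replicate 3 for 4 (19.0%). Over the other 1510 genes listed as higher in Chinese Simmental, replicate 1 was lowest for 62.5%, replicate 2 for 32.3% and replicate 3 for 5.17%, and over the 71 of like level for 50.7%, 25.4% and 23.9%. Of the 13 widely spread genes, 8 were lowest in replicate 2, among them HHLA2, PHGR1, HCRT and LOC112442013. CCL8, ISL2 and MSTRG.17139 were lowest in replicate 1, and MSTRG.10665 and MSTRG.15583 in replicate 3. In Angus, summed normalized counts of the 16 genes were 761, 742 and 626, and replicate 2 was the highest for 9 of them.

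**Figure D3:**
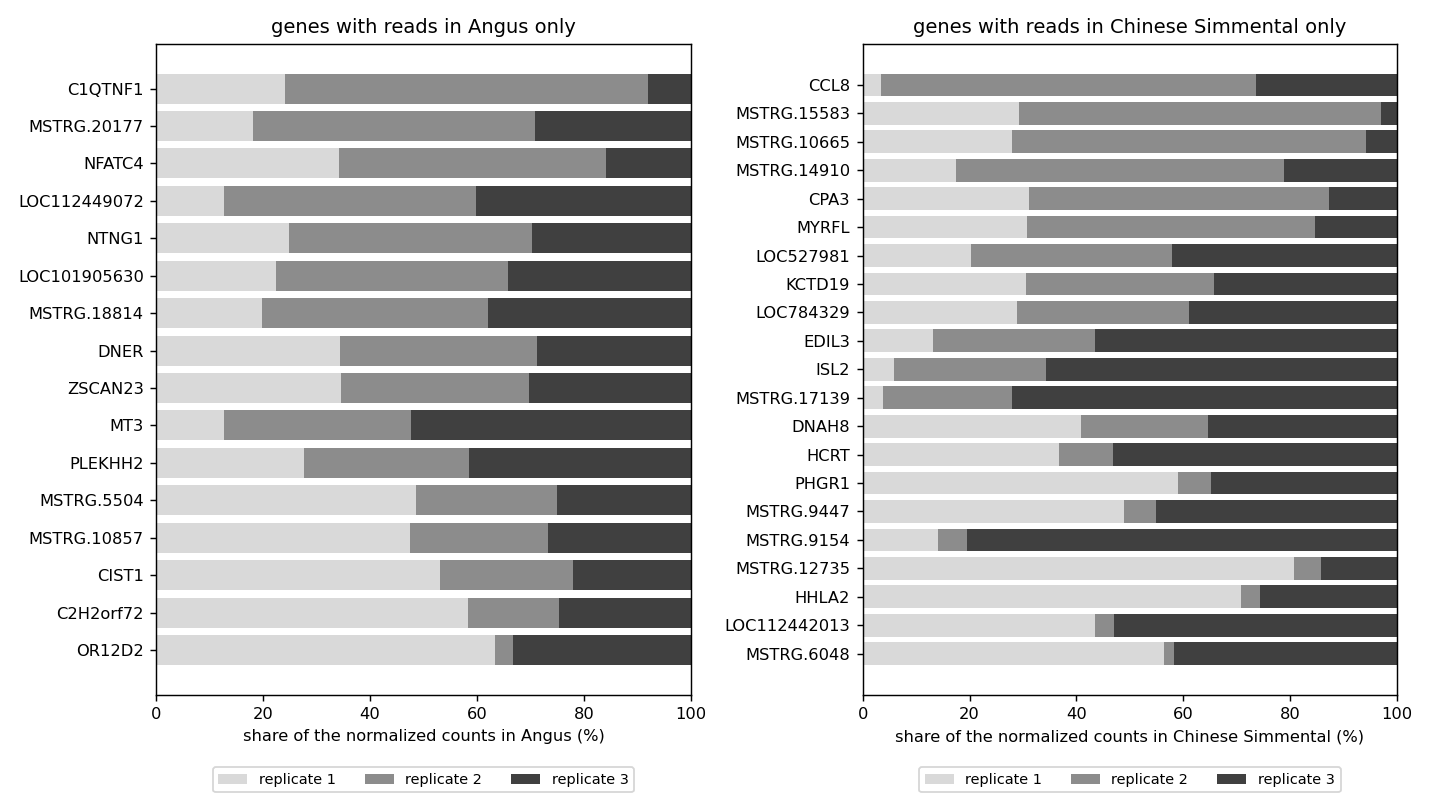
Share of each gene's normalized counts, in percent, held by replicates 1, 2 and 3 of the breed in which it had reads, sorted by the share of replicate 2. KCTD19, DNER and ZSCAN23 split almost evenly, while HHLA2 and MSTRG.12735 had 70.8% and 80.8% in Chinese Simmental replicate 1.

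Counts and deposited FPKM ordered these genes differently. FPKM divides by transcript length and depth, but that division does not turn reads into an FPKM of 0, which some libraries had. The tools behind counts and FPKM are not named, and the measures may come from different tools. Why they differ was not tested. KCTD19, with 67 reads in all, had a mean FPKM of 10.9, whereas MYRFL, with 223 reads, had a mean FPKM of 0.167. The highest mean FPKM of the 37 genes was 33.2, in MSTRG.6048 with 92 reads. A mean FPKM of at least 1 was reached by 4 of the 16 genes, DNER, NTNG1, ZSCAN23 and OR12D2, and by 4 of the 21, KCTD19, MSTRG.6048, MSTRG.9154 and MSTRG.17139. Mean FPKM was under 0.5 for 10 of the 16 and 17 of the 21. The reads behind 1 unit of FPKM ran from 0.962 for MSTRG.6048 to 899 for LOC101905630, with a median of 107 over the 37 genes, close to the 103 over all listed genes. In 4 of the 37 it lay below the fifth percentile of listed genes (5.39), and in 2 above the 95th (666). The 4 were MSTRG.6048, KCTD19 (1.98), MSTRG.17139 (4.33) and NTNG1 (5.09), whose FPKM values were thus high for their reads. In 5 of the 37 genes FPKM was 0 in a library that had reads, as for MSTRG.10857, with 135 and 50 reads but FPKM of 0 in Angus replicates 1 and 2 and 66 reads at 2.64 in replicate 3. The same was found for 96 of the 2040 listed genes (4.71%).

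**Figure D4:**
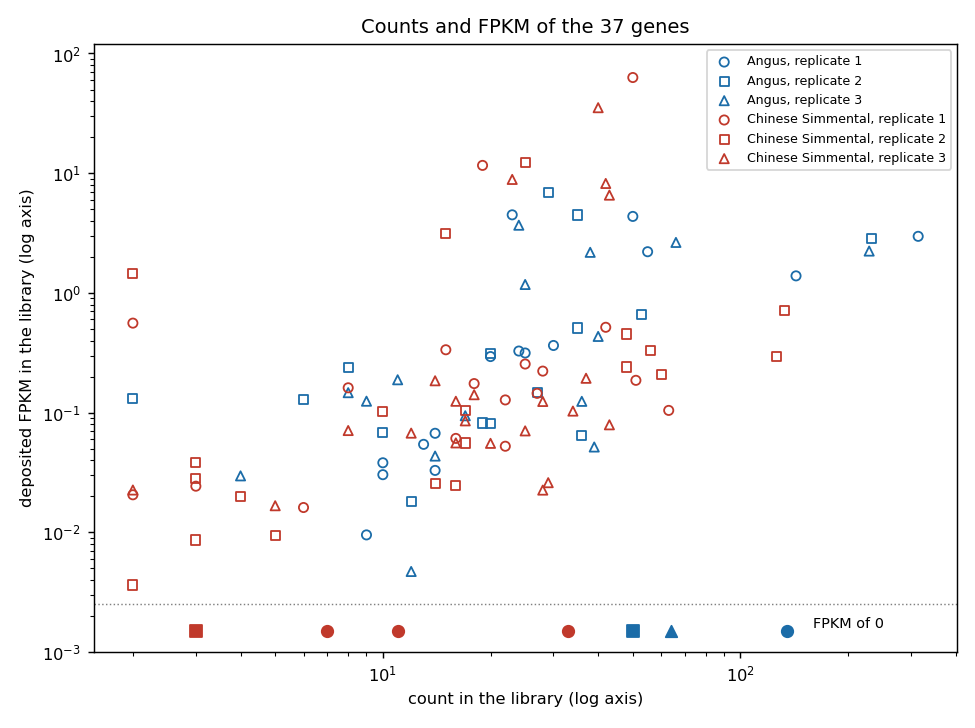
Deposited FPKM against the count of the same library for the 37 genes, both on log axes, with colour for the breed and a symbol for the replicate; filled symbols under the dotted line mark libraries with reads and an FPKM of 0. At about 20 to 50 reads, FPKM ranges from under 0.1 to 63.0, the value of MSTRG.6048 in Chinese Simmental replicate 1.

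The names and annotation of the 37 genes differed from the table as a whole, in properties that the choice of genes did not use. The 37 were also far weaker than most listed genes. Genes of like level were not compared, so whether these differences go with low level was not tested. Assembled loci were 12 of the 37 (32.4%), against 222 of the 2040 (10.9%), and provisional LOC names 5 (13.5%) against 165 (8.09%). Gene symbols were 20 of the 37 (54.1%), against 81.0% of the table. A Swiss-Prot text was given for 28 (75.7%), against 87.1%, and a Pfam domain for 24 (64.9%), against 85.6%. All 37 had an nr text, as did every listed gene. In 9 of the 37 (24.3%), against 172 listed genes (8.43%), the nr or Swiss-Prot text held a word such as uncharacterized or hypothetical.

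Swiss-Prot texts often named another protein than the symbol. Of 15 named genes whose Swiss-Prot text gave a gene, 6 had the same gene, namely MT3, KCTD19, CCL8, EDIL3, HCRT and MYRFL, against 691 of 1461 (47.3%) in the table. For C1QTNF1 the text was adiponectin, for HHLA2 neural cell adhesion molecule 1, for CPA3 carboxypeptidase B, for ISL2 LIM homeobox protein Lhx9, for PLEKHH2 unconventional myosin-X and for DNER the DLK2 protein. In each of these the nr text named the symbol's own protein. C2H2orf72, CIST1 and PHGR1 shared the text of a basic proline-rich protein of pig, which 72 listed genes carried.

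How the fold changes in the authors' deposited table compared with the bounds depended on the floor. Their size on the log2 scale was 2.33 to 7.37 for the 16 genes and 2.35 to 5.12 for the 21 in the authors' deposited table, and all 37 lay below the bound from 3 counts over the other breed. With 3 counts in each library as the floor, the values in the authors' deposited table lay below the bound for 1 of the 16 genes and 8 of the 21, and differed from it by a median of 0.37 and 0.10 in log2. With 3 counts over the breed, the difference of the authors' deposited table from the bound in log2 had a median of -1.22 over the 16 genes and -1.52 over the 21. For DNER the authors' deposited table gives -7.37 for Chinese Simmental over Angus, where the bound is 8.06, and for KCTD19 the same authors' deposited table gives 3.42, where the bound is 4.44. For the 1221 listed genes with at least 1000 normalized counts in the higher breed, the size in the authors' deposited table was a median of 0.955 times the one computed from mean normalized counts. The median bound itself was 24.2-fold over the 16 genes and 18.8-fold over the 21. With TMM factors computed over the listed genes, which move the median log2 ratio of Chinese Simmental to Angus by -1.36, these bounds became 62.9-fold and 7.998-fold.

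**Figure D5:**
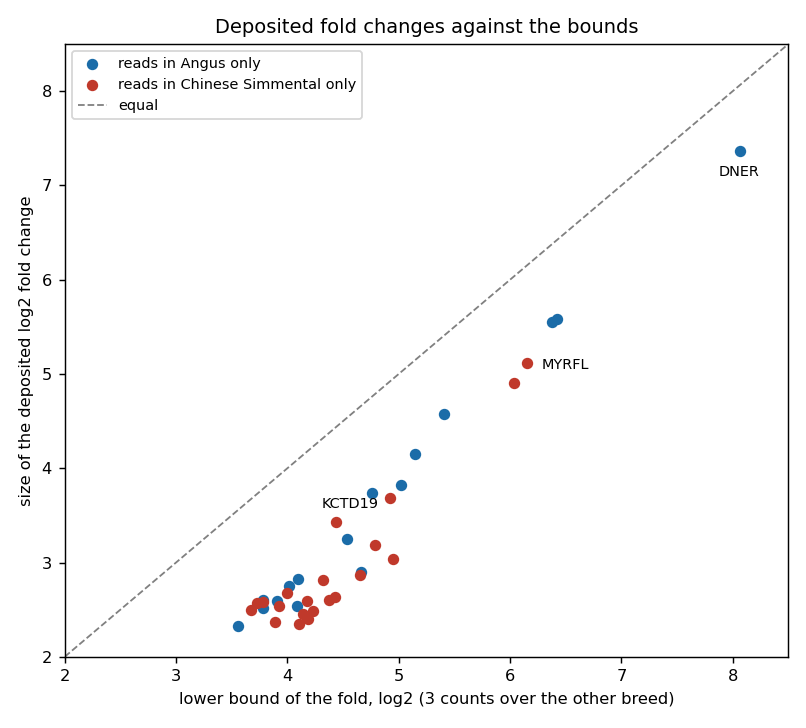
Size of the log2 fold change in the authors' deposited table against the log2 lower bound from the counts for each of the 37 genes, with a dashed line where they are equal. With this floor of 3 counts over the other breed all 37 points lie under the line, from DNER at 8.06 on the horizontal axis down to LOC101905630 at 3.56.

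Several genes just missed the choice. Between 1 and 3 reads in the low breed were found for 6 of the 509 genes listed as higher in Angus. The same held for 17 of the 1531 listed as higher in Chinese Simmental, a like share. FAM163A had 3 reads in Chinese Simmental, all in replicate 2, against 28, 23 and 61 in Angus, and the estrogen receptor gene ESR2 had 2, 2 and 0 against 24, 16 and 24. C20H5orf49 had 1 read in Angus, in replicate 1, against 9, 11 and 20 in Chinese Simmental. CHRM3, a muscarinic acetylcholine receptor, had 2 reads in Angus against 24, 139 and 15, and GLP1R, the receptor of glucagon-like peptide 1, had 2 against 30, 37 and 26. Both had their Angus reads in replicate 3. Without Angus replicate 3, 32 genes in place of 21 had no read in Angus, the 11 that enter including CHRM3, GLP1R, TMC1 and CAPNS2. Without Chinese Simmental replicate 2, 23 genes in place of 16 had no read in that breed.

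Neighbouring genes did not share the direction of the 37 more often than elsewhere in the table. In the RefSeq gene order of assembly ARS-UCD2.0, which is not the build of the files, 24 of the 37 could be placed, and their 3 protein-coding neighbours on each side numbered 144. Of these neighbours 17 (11.8%) were listed, against 13.0% around all listed genes. The direction was the same for 10 of the 17 (58.8%), against 83.4% of 1362 listed neighbours around all listed genes. These shares are not like for like. Some listed genes, such as EYA3 and PTAFR, carry identical counts, and none of the 37 shares its counts. In addition, 1531 listed genes were higher in Chinese Simmental and 509 in Angus, and the shares were not split by direction. RAB3IP, next to MYRFL, was higher in Chinese Simmental at 7278 normalized counts against 939, and VCAN, the second gene from EDIL3, at 9318 against 665. GLP1R, 1 of the genes that just missed the choice, is the second gene from DNAH8. HLTF near CPA3 and CIP2A near HHLA2 were listed in the opposite direction, as higher in Angus. None of the 144 neighbours was itself among the 37 genes, and neighbours that were not listed have no counts here.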

How the data were processed

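Longissimus dorsi RNA of both breeds, with 3 libraries each grouped by sample titles, was made into libraries from 1 µg of total RNA, per the labels' protocols. Per the submitters' processing notes, HISAT2 and the build ARS-UCD1.2 were used. The sources used here name no counter, strand setting or annotation, so reads of paralogs, repeats, overlapping and antisense genes cannot be told apart. Per the file headers, the authors deposited whole-number counts and FPKM per library, a normalized signal per breed (the mean scaled count), a log2 fold change, and p-values with adjusted p. The table has 2040 genes and 1 blank row. Names in its headers matched sample titles.

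Size factors were solved from the deposited group means (largest relative residual 1.52e-09), and counts were divided by them. A fold, called a lower bound here, is the mean normalized count in one breed over that of 3 counts across the other breed's libraries. It leaves out the spread and counting error of the breed with reads, so it is no guaranteed minimum. No gene passed or failed a test here: the choice of genes used the same contrast. Of the 37 genes, 13 (10 with reads in Angus, 3 in Chinese Simmental) passed filterByExpr of edgeR 4.0.16 with a minimum count of 10, as did 1984 listed genes; they passed only through the breed with reads. Alternative factors came from edgeR (TMM) and DESeq2 1.42.0 in R 4.3.3. The steps were tested on simulated data. Reads per FPKM are scaled to the mean library, with relative depths taken from 1487 well counted genes (50 counts or more throughout).

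The members, the gene lists and the naming rule (all symbols, full values for the 8 highest per direction) were chosen with earlier results of these data known. The lists for mast cells, cilium, CCL2-like chemokines, metallothioneins, NFAT, C1q proteins, orexin and B7 ligands, and the values of genes outside the rule, were added after the values were seen. Symbols of 24 of the 37 matched RefSeq (ARS-UCD2.0). No sequences are shown, and sequence features were not analysed here.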

Additional observations from a re-analysis of the deposited data

How the results depend on the processing

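The choice of genes kept to within 1.5 times of 16 and 21 with at most 1 read allowed in the low breed (19 and 23) and with shared counts used once (16 and 21). For genes without reads in Angus, it moved to 38 with at most 3 reads allowed and to 40 with an FPKM of 0 in place of counts, and it ran from 21 to 32 when 1 library was left out, the highest without Angus replicate 3. With at least 10 counts asked of every library of the other breed, 10 genes without reads in Chinese Simmental and 6 without reads in Angus were left, with median levels of 33.2 and 26.1 and median bounds of 34.0-fold and 25.97-fold. Median levels of 23.7 in Angus and 18.9 in Chinese Simmental became 37.4 and 12.8 with TMM and 36.9 and 12.5 with RLE factors over the listed genes. The median bounds of 24.2-fold and 18.8-fold became 62.9-fold and 7.998-fold with TMM, 62.3-fold and 7.89-fold with RLE, and 8.05-fold and 6.11-fold with 3 counts in each library as the floor. With 1 library left out the bounds ran from 15.6-fold to 25.1-fold and from 11.4-fold to 20.8-fold. The lowest came with a library of the breed without reads left out, which raises the floor. Leaving out a library of the breed with reads moved the bounds both ways, from 22.4-fold to 25.1-fold and from 16.5-fold to 20.8-fold. The low ends there were without Angus replicate 2 and without Chinese Simmental replicate 3. Totals from counts over FPKM, and no scaling, moved levels and bounds by less than the spread between libraries. No paired analysis was possible because no result comes from a test, and the numbers in the titles pair no samples. The depth outside the listed genes is unknown, so counts under 5 in a library limit what can be said of 2 genes with reads in Angus and 11 with reads in Chinese Simmental.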
